A study of Mus musculus with 28 samples.

Results

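The 10 genes described here are direct targets of the transcription factor p53 in many mouse and human cells. *Mdm2*, *Cdkn1a*, *Btg2*, *Perp*, *Ccng1*, *Trp53inp1*, *Sesn2*, *Phlda3*, *Zmat3*, and *Bax* were followed through the RNA, chromatin, and binding data of mouse embryonic stem (mES) cells. They were taken by gene symbol and joined by gene identifier. All 10 had values among the 15384 genes with RNA-seq values per library. The cells were of the E14 line, an established mouse ES cell line, grown without feeder cells on gelatin with leukaemia inhibitory factor (LIF), which holds them undifferentiated. Control cells received a lentiviral vector with a scramble short hairpin RNA (shRNA), and knock-down (KD) cells received a combination of 2 shRNA vectors against *Ssrp1*. After 48 h, both groups were selected with puromycin at 2 μg/ml for 24 h, so all RNA libraries compared come from puromycin-treated, transfected cells. RNA was depleted of ribosomal RNA, ERCC spike-in RNA was added, and 4 libraries per group, described as biological replicates, were sequenced. E14 cells with no vector or puromycin named gave 2 libraries of chromatin-associated RNA. Such cells also gave 1 peak list each for SSRP1 and SUPT16, in which the replicates had been pooled.

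SSRP1 and SUPT16 are the subunits of FACT, a histone chaperone that takes apart and rebuilds nucleosomes in the path of RNA polymerase. p53 binds DNA as a tetramer, at a pair of decamer motifs of 10 bases each, and activates genes that stop the cell cycle, promote apoptosis, repair DNA, or change metabolism. MDM2, itself the product of a target gene, marks p53 for degradation and so closes a feedback loop. ES cells carry abundant p53 protein, and their targets are transcribed to some extent without added damage.

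Sequences with the letters of the p53 motif are shown first, found by a search of the genome and with no p53 binding data. The search was for 2 decamers of the standard p53 consensus, which reads alike on both strands, with 0 to 13 bases between them. The core C and G of each decamer had to be kept, and at most 2 other mismatches in all were allowed. The start of a gene was taken as the outermost start of its annotated exons, and starts of other transcripts further inside were not used. The window ran from 5000 bp before that start to the end of the gene (mm10, read from GRCm38.p6). It held 62 such pairs at the 10 genes, of which 21 lay mostly in repeat-masked sequence. Printed here are the pair nearest to the start among those with at most 1 mismatch and at most 1 base between the decamers, for each gene that had one, and 2 pairs without a spacer that fell within an SSRP1 peak. They run 5′ to 3′ on the strand of the gene, with the core C and G of each decamer in capitals.
Cdkn1a, chr17:29090928-29090947, plus strand, 58 bp before the start: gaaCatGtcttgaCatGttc
Ccng1, chr11:40755462-40755481, minus strand, 195 bp before the start: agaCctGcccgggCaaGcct
Ccng1, chr11:40754936-40754955, minus strand, intronic, 331 bp after the start, in an SSRP1 peak: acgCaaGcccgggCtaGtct
Bax, chr7:45466574-45466593, minus strand, intronic, 305 bp after the start, in an SSRP1 peak: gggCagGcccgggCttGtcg
Zmat3, chr3:32364331-32364350, minus strand, intronic, 1315 bp after the start: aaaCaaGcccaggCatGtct
Trp53inp1, chr4:11155112-11155132, plus strand, 1329 bp before the start: aaaCatGtccaggaCtaGcct
Mdm2, chr10:117699921-117699940, minus strand, intronic, 10776 bp after the start: ggaCttGtccagcCaaGttt

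The pairs at *Zmat3* and *Trp53inp1* matched the consensus with 0 mismatches, the *Bax* pair had 2, and the other printed pairs had 1. In the RefSeq promoter windows (250 bp before to 50 bp after a start), which covered 7 of the 10 genes, 3 held a pair: *Cdkn1a*, *Ccng1*, and *Bax*. Over 27025 genes with such a window the share was 4.71%. The looser search within 5000 bp to each side of the start said little, since 84.3% of 15369 genes held a pair there. Without any mismatch, 3.34% of those genes and 3 of the 10 (*Cdkn1a*, *Trp53inp1*, and *Zmat3*) held one. A match describes letters in a window and is not a bound site.

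The knock-down was seen in every KD library. *Ssrp1* had values of 223 to 261 in control and 24.1 to 28.9 in KD libraries (log2 fold change -3.15). The RNA of *Supt16*, the other subunit, had a log2 fold change of 0.66 under library-size scaling. For the protein, the authors report by mass spectrometry that SUPT16 was depleted as well. Reads per library, recovered from the values, were 4602278 to 6680919 in control and 9433193 to 19856032 in KD cells, so low genes were measured more coarsely in control cells. By limma under library-size scaling, 8.07% of all genes were called higher and 20.6% lower. Of 10 ES cell markers, 7 rose, and their summed value was 1709 to 1836 in control and 4915 to 5400 in KD libraries. Of the markers of other cells, 6 of 14 epithelial and trophectoderm, 7 of 9 mesoderm and endoderm, and 3 of 7 fibroblast genes fell and 0 rose (limma, edgeR, and DESeq2 alike, with 1, 0, and 0 higher at an unadjusted p below 0.05). Their summed values were 1537 to 2047 against 1146 to 1176 for the epithelial list, 88.6 to 131 against 32.5 to 36.1 for mesoderm and endoderm, and 400 to 445 against 331 to 362 for fibroblasts. By limma under the spike-in scaling, all 10 ES cell markers were called higher, the epithelial list had 2 higher (*Krt17* and *Jup*) and 2 lower (*Krt14* and *Krt15*), and 3 mesoderm and endoderm genes (*Sox7*, *Kdr*, and *Cdh2*) and 3 fibroblast genes, the collagens, were lower. Of all genes, 48.1% were called higher and 7.03% lower under the spike-in scaling. Under quantile normalisation 2 ES cell markers (*Tdgf1* and *Fgf4*) and *Krt17* were called higher, and 7 epithelial, 4 mesoderm and endoderm, and 3 fibroblast genes lower. The shares of all genes were then 9.87% higher and 10.8% lower. Of the 14 epithelial and trophectoderm markers, *Krt14* (18.0 against 1.03) and *Krt15* (42.9 against 1.57) were low in KD cells. As given above, *Krt17* was called higher under the spike-in scaling and quantile normalisation, and *Jup* under the spike-in scaling. No measured marker was at 0 in a library. In bulk RNA, fewer cells of a type and less RNA per cell cannot be told apart, and the part of these cells in the results for the p53 targets was not tested.

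Under library-size scaling *Ssrp1* KD divided the p53 targets. *Perp*, *Mdm2*, *Zmat3*, and *Btg2* fell to between 0.29 and 0.46 of their control level, *Cdkn1a*, *Phlda3*, and *Sesn2* were lower by less than the fold threshold, *Trp53inp1* was level under this scaling, and *Ccng1* and *Bax* were higher by less than the threshold. The test was limma on log2(value + 0.5) over all 15384 genes, and a call needed both a log2 fold change beyond 1 in either direction and a Benjamini-Hochberg adjusted p below 0.01. By this rule 4 of the 10 genes were called lower and 0 higher, beside 20.6% and 8.07% of all genes, or 28.6% in either direction. With edgeR and DESeq2 on the recovered reads, also 4 were lower and 0 higher. By the adjusted p alone, 7 were lower and 2 higher, beside 37.3% and 35.4% of all genes, and the counts at an unadjusted p below 0.05 were the same. Their median log2 fold change was -0.78, and that of all genes tested was -0.03. The 4 genes called lower were so in each of the 8 fits that left out 1 library. The order of the genes in the plot of values per library runs from *Perp*, at the 8.34th percentile of all fold changes, to *Bax*, at the 86.1st.

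**Figure D1:**
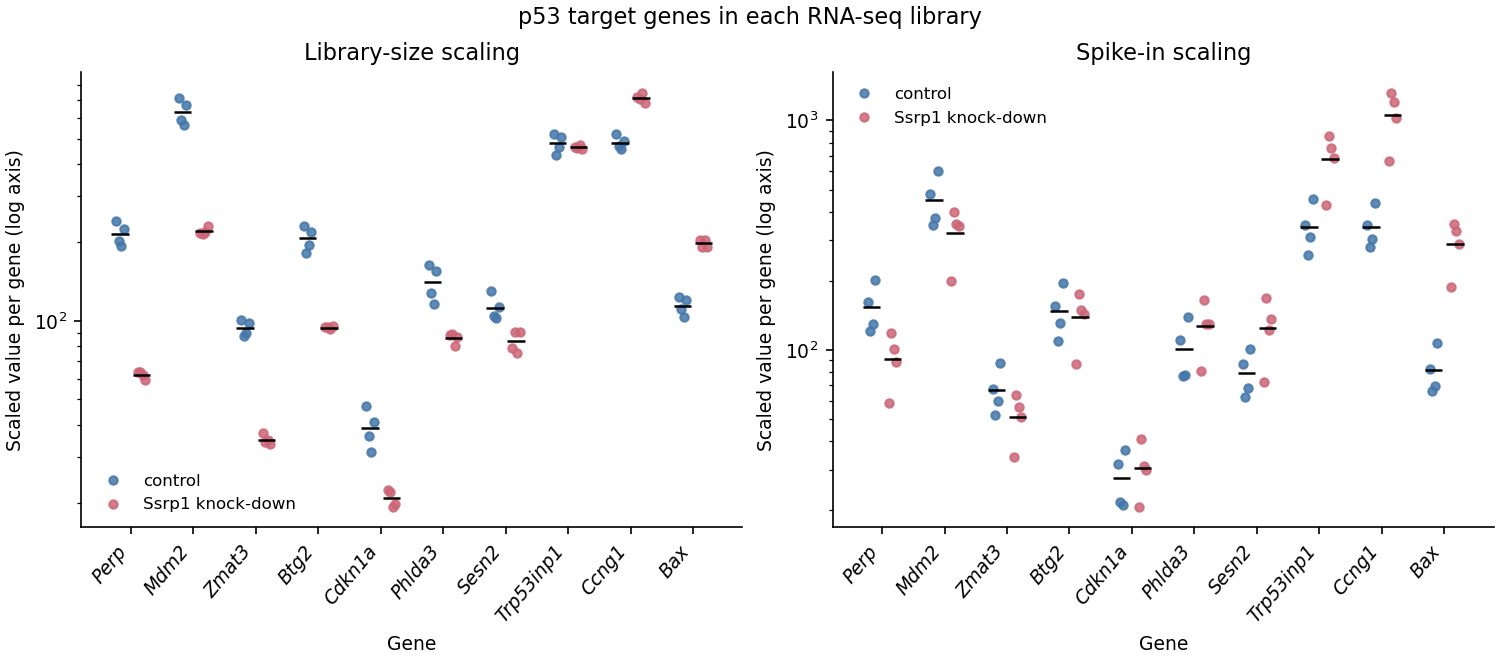
Value of each p53 target gene in each of 4 control (blue) and 4 KD (red) libraries, under the scaling to library size (left) and to the spike-ins (right). Points are libraries, bars are means, the vertical axes are logarithmic, and genes are ordered by fold change under library-size scaling. On the left, the groups overlap for *Trp53inp1* alone among the 10, and on the right they are apart for *Perp*, *Ccng1*, and *Bax*.

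*Mdm2* encodes the ubiquitin ligase of the feedback loop. Its values were 714, 587, 563, and 669 in the control libraries (replicates in order) and 217, 215, 219, and 230 in the KD libraries. The highest KD value was far below the lowest control value. The mean went from 633 ± 70.7 to 220 ± 6.75 (SD, n = 4 each), a log2 fold change of -1.52 ± 0.06 (SE; limma, adjusted p = 2.08e-17). *Mdm2* lies on chromosome 10 (117688905 to 117710716, minus strand).

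Among the genes that hold back division, *Cdkn1a* encodes p21, an inhibitor of cyclin-dependent kinases. It had values of 47.2, 36.3, 31.4, and 40.8 in control and 22.5, 22.1, 19.4, and 19.8 in KD libraries. The groups were apart, and the control libraries spread more widely (a coefficient of variation of 17.3% against 7.54%). Its log2 fold change of -0.87 ± 0.10 (limma, adjusted p = 1.71e-08) was under the fold threshold. *Btg2*, an anti-proliferative factor that promotes mRNA deadenylation, had values of 230, 182, 196, and 219 in control and 94.4, 94.3, 92.7, and 95.1 in KD libraries. The KD libraries were nearly level with each other, and *Btg2* fell by 1.13 ± 0.06 on the log2 scale (limma, adjusted p = 7.66e-15). *Zmat3*, which encodes an RNA-binding zinc finger protein, had values of 101, 87.3, 89.7, and 98.1 in control and 37.2, 34.2, 34.8, and 33.8 in KD libraries. It fell by 1.41 ± 0.07 (limma, adjusted p = 2.97e-16), with no overlap between the groups. The antisense long non-coding RNA *4930429B21Rik* covers 162 exonic bases of the 7784 of *Zmat3*, and the sources used here do not say whether strand was used in counting.

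*Ccng1* encodes cyclin G1, a partner of the phosphatase PP2A that acts on MDM2, and it was higher in KD cells. Its values were 520, 468, 455, and 488 in control and 721, 712, 748, and 684 in KD libraries. Every KD value was above every control value. The log2 fold change was 0.57 ± 0.06 (limma, adjusted p = 9.2e-10), under the fold threshold.

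The genes tied to cell death were split. *Perp*, a membrane protein of desmosomes and an effector of apoptosis, had values of 242, 203, 194, and 224 in control and 63.8, 63.7, 62.2, and 59.1 in KD libraries. It had the lowest fold change of the 10, -1.78 ± 0.06 (limma, adjusted p = 1.05e-18). *Phlda3*, which encodes a pleckstrin-homology protein that holds back Akt, had values of 164, 128, 116, and 155 in control and 88.2, 89.2, 80.2, and 86.3 in KD libraries. The groups were apart, and the log2 fold change of -0.70 ± 0.08 (limma, adjusted p = 7.93e-09) was under the fold threshold. *Bax* encodes the protein that permeabilises the outer mitochondrial membrane in apoptosis. Its values were 123, 110, 104, and 120 in control and 204, 192, 204, and 192 in KD libraries. All KD libraries were higher, with a log2 fold change of 0.79 ± 0.06 (limma, adjusted p = 3.17e-12), which did not reach the fold threshold. *Trp53inp1*, a nuclear and autophagy-linked protein that promotes p53-dependent death, had values of 523, 433, 462, and 506 in control and 463, 460, 471, and 457 in KD libraries. The KD values lay within the control range, with a log2 fold change of -0.05 ± 0.06 (limma, adjusted p = 0.42).

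*Sesn2* encodes sestrin 2, which lowers mTORC1 activity under stress. It had values of 130, 104, 102, and 113 in control and 78.6, 90.6, 75.3, and 90.7 in KD libraries. The groups did not overlap, and the log2 fold change was -0.42 ± 0.07 (limma, adjusted p = 1.39e-05). KD libraries were all below control for 7 of the 10 genes and all above for 2, beside 37.5% and 35.8% of all genes. An exact two-sided permutation test of 4 against 4 libraries gave p = 0.0286 for these 9, the smallest value it can give, and p = 0.371 for *Trp53inp1*.

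Within the control group the 10 genes varied together. Control replicate 1 was the highest of the 4 for all 10, and replicate 2 or 3 was the lowest for all 10 (3 and 7 genes). Over all genes, replicate 1 was the highest for 30.7%, replicate 2 the lowest for 23.9%, and replicate 3 for 27.1%. The values of a library summed over all genes were also highest in replicate 1, at 909417, and lowest in replicate 3, at 825584, after the TMM scaling of the authors. In KD libraries these sums were higher, 1137290 to 1182580. With plain CPM of the recovered reads, where every library has the same total, replicate 1 was highest for 7 of the 10 and replicate 4 for 3, whereas 15.2% and 16.2% of all genes had their highest value there. Under the spike-in scaling control replicate 4 was the highest for all 10 and for 81.7% of all genes. Under library-size scaling the 4 KD libraries were closer to each other, with coefficients of variation of 1.11% (*Btg2*) to 9.58% (*Sesn2*) against 5.84% (*Ccng1*) to 17.3% (*Cdkn1a*) in control, and with the lower one in KD for each of the 10 genes and for 72.3% of all genes. The spike-in scaling gave the lower one in KD for 2 of the 10 and 18.7% of all genes, and plain CPM for 7 and 69.8%. The part of these library differences in the spread was not tested.

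The scaling set the sign for several of the genes. Under the spike-in scaling of the authors, which takes added RNA as the measure of total RNA, the median of all genes was 0.95 and that of the 10 genes 0.23. *Bax* (1.81) and *Ccng1* (1.59) were then called higher and 0 genes lower (limma), beside 48.1% and 7.03% of all genes. By range, 2 of the 10 genes were higher and 1 lower in all KD libraries, beside 48.8% and 9.17% of all genes. *Perp* (-0.76), *Mdm2* (-0.49), *Zmat3* (-0.39), and *Btg2* (-0.10) had negative values that were not called, and *Cdkn1a* (0.14), *Phlda3* (0.32), *Sesn2* (0.60), and *Trp53inp1* (0.97) had positive ones that were not called either. For *Perp* the spike-in values were 162, 121, 130, and 201 in control and 58.7, 118, 100, and 89.0 in KD libraries, with no overlap. For *Ccng1* they were 349, 280, 305, and 437 in control and 664, 1318, 1208, and 1029 in KD libraries. KD replicate 1 was the lowest KD library for all 10 genes and for 96.5% of all genes under this scaling. Left out, a choice made after seeing the data, it gave 3 genes called higher, with *Trp53inp1* (1.18) the one added, and 0 lower, beside 55.9% and 5.42% of all genes. The 2 deposited scalings differ by 1 factor per library, so they shift all genes alike and leave their order nearly as it is.

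**Figure D2:**
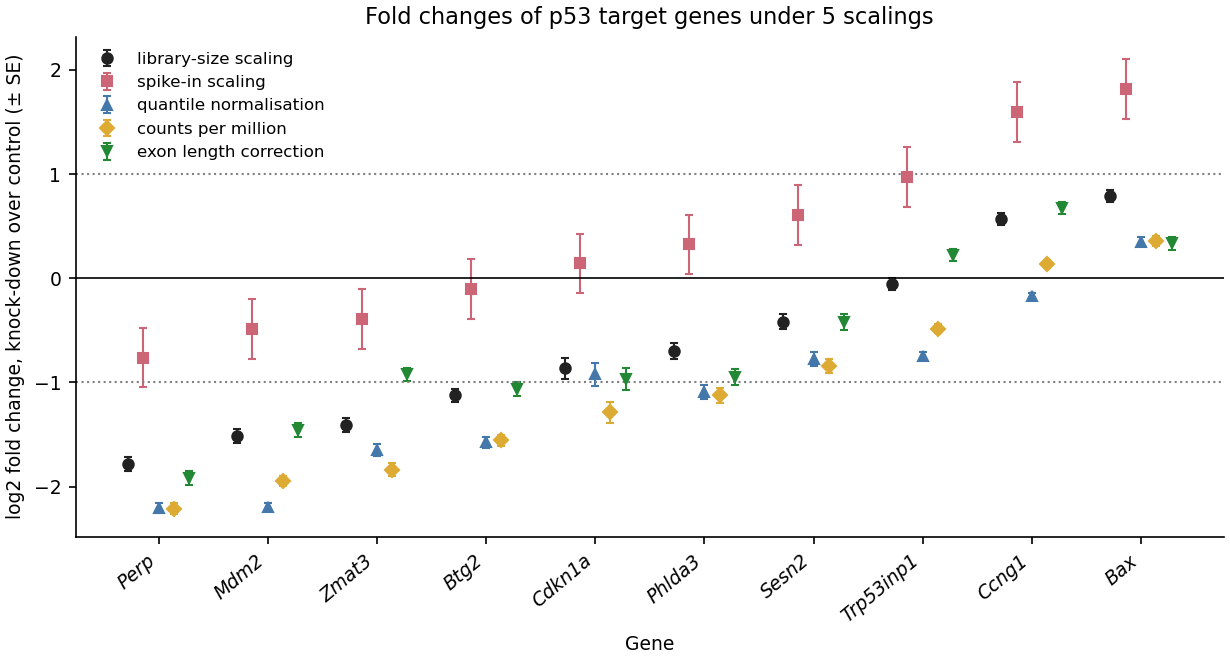
Log2 fold change of each p53 target gene, KD over control, with its standard error (limma) under 5 scalings. The dotted lines are the fold threshold of 1 in each direction. Spike-in values lie above the others for each gene, *Ccng1* is 0.57 under library-size scaling and -0.17 under quantile normalisation, and *Perp* is negative under all 5.

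Quantile normalisation, which gives each library the same distribution of values, moved the 10 genes down. *Mdm2* was then at -2.20, *Perp* at -2.21, and *Phlda3* at -1.09, so 5 genes were called lower and 0 higher, beside 10.8% and 9.87% of all genes, *Ccng1* was at -0.17, and *Trp53inp1* at -0.75 (limma, adjusted p = 2.35e-11). Plain CPM, added after seeing the data, had a median of -0.45 over all genes, called 6 of the 10 lower and 0 higher, beside 30.5% and 2.23% of all genes, and left *Ccng1* at 0.14 and *Bax* at 0.36. *Trp53inp1* was then at -0.48 (limma, adjusted p = 3.02e-10), and the groups did not overlap for any of the 10 genes, beside 75.3% of all genes. Fold changes also followed exon length over all genes, with a median of 0.39 in the shortest of 5 length classes (up to 1433 bp, where *Bax* lies with 869 bp) and of -0.37 in the longest (from 4551 bp, where *Trp53inp1* and *Zmat3* lie). With a correction for length, *Bax* was at 0.34, *Zmat3* at -0.92, and no longer called, and *Trp53inp1* at 0.22.

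Ratios between genes within a library do not depend on a factor that scales the library, but they do depend on the trend with length. Of the 45 pairs among the 10 genes, the ratio did not overlap between control and KD libraries for 44, beside 76.8% of the ratios of these genes to the other genes with values above 0 in all libraries. These pairs were examined after the values had been seen. *Perp* over *Bax* had the largest difference of the 45 before a correction for length, from a log2 ratio of 0.91 ± 0.04 to -1.67 ± 0.05 (SD, n = 4 each), a difference of -2.58. With the length correction, added to the ratios after seeing the data, it was -2.25, and *Perp* over *Ccng1* was largest at -2.59. *Mdm2* over *Ccng1* went from 0.39 ± 0.08 to -1.70 ± 0.09, and *Mdm2* over *Bax* by -2.31. *Mdm2* over *Zmat3* alone overlapped, with a difference of -0.09 (exact permutation p = 0.229, adjusted over the 45 pairs 0.229), whereas the other 44 had an exact permutation p of 0.0286 (adjusted 0.0292), the smallest possible. *Ccng1* over *Bax*, the 2 genes that were higher, differed by -0.22. With the length correction *Mdm2* over *Zmat3* was at -0.54.

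**Figure D3:**
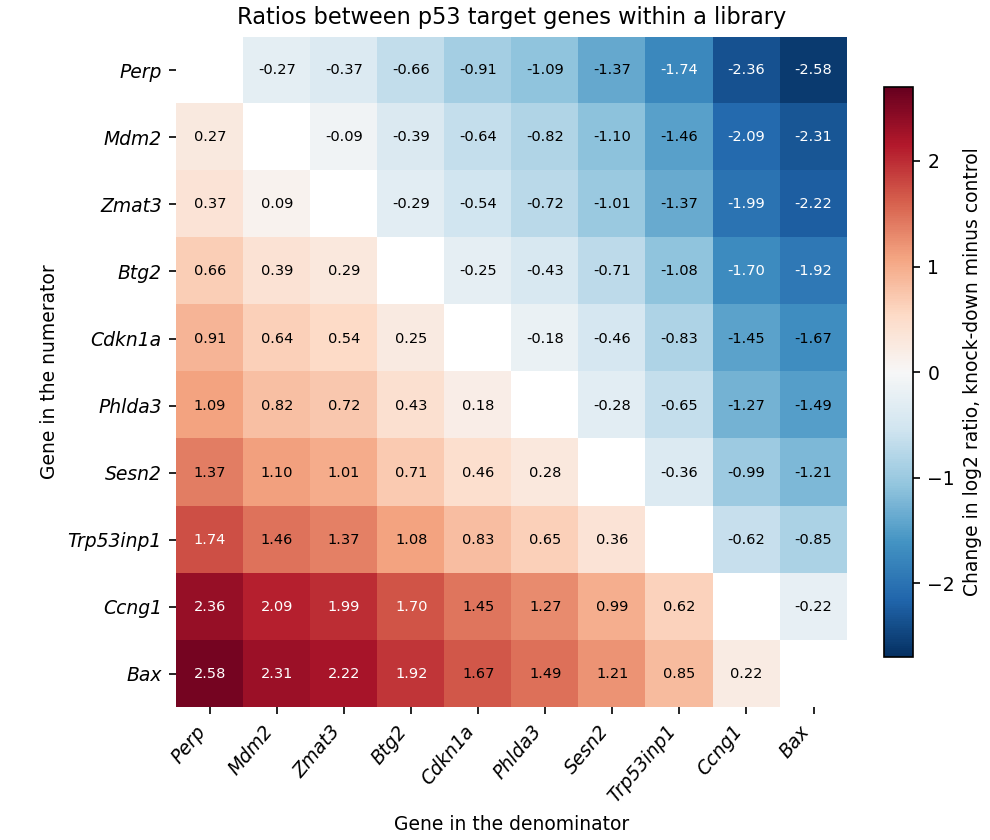
Change in the log2 ratio of 2 p53 target genes within a library, KD mean minus control mean, for each pair (rows over columns, genes ordered by fold change). Blue is a lower and red a higher ratio in KD cells. The values run from -2.58 for *Perp* over *Bax* to -0.09 for *Mdm2* over *Zmat3* above the diagonal.

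Levels between genes were compared per kilobase of exon length, as library-size values per kb. In control cells *Mdm2* was highest (209 ± 23.4), followed by *Ccng1* (138 ± 8.09), *Bax* (132 ± 10.5), *Perp* (114 ± 11.3), *Phlda3* (96.0 ± 15.2), *Trp53inp1* (88.6 ± 7.52), *Btg2* (67.1 ± 7.04), *Sesn2* (42.2 ± 4.75), *Cdkn1a* (19.2 ± 3.32), and *Zmat3* (12.1 ± 0.84; SD, n = 4). Each neighbouring pair from *Ccng1* to *Trp53inp1* overlapped over the libraries, and the others did not. *Mdm2* was thus at the 98.2nd percentile of all genes and *Cdkn1a* at the 75.3rd. In KD cells *Bax* (228 ± 8.32) and *Ccng1* (205 ± 7.51) led, *Trp53inp1* (85.2 ± 1.17) came next, before *Mdm2* (72.8 ± 2.23), *Phlda3* (58.6 ± 2.77), *Perp* (32.7 ± 1.14), *Sesn2* (31.5 ± 3.02), *Btg2* (30.5 ± 0.34), *Cdkn1a* (10.3 ± 0.78), and *Zmat3* (4.50 ± 0.20). Of these neighbours, *Perp* and *Sesn2*, and *Sesn2* and *Btg2*, overlapped. The highest gene stood 17.3 times above the lowest in control and 50.6 times in KD cells.

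The gene of p53 itself was level under library-size scaling. *Trp53* had values of 65.1 to 69.6 in control and 64.4 to 71.8 in KD libraries (log2 fold change 0.01 ± 0.06; limma, adjusted p = 0.88), and under the spike-in scaling it was at 1.03 and called higher, where the median of all genes was 0.95. *Mdm4*, the inhibitory partner of MDM2, was at -0.30 (adjusted p = 3.37e-04), and *Ppm1d*, a phosphatase of the feedback loop, at -0.48 (adjusted p = 6.2e-07, both limma). Of 18 measured genes that encode p53 or its regulators, 2 fell and 0 rose by both thresholds, with limma, edgeR, and DESeq2 alike. By limma the shares of all genes were 20.6% and 8.07%, or 37.3% and 35.4% by the adjusted p alone. The median of the 18 was 0.03. At an unadjusted p below 0.05, 8 were lower and 8 higher. Those that fell were *Hipk2* (-1.46), a kinase that phosphorylates p53, and *Trp73* (-1.31), a p53 relative. Under the spike-in scaling neither was called (-0.49 and -0.31). There 10 of the 18 were called higher and 0 lower, beside 48.1% and 7.03% of all genes. Under quantile normalisation *Hipk2* was not called (-0.94), *Trp73* was (-1.19), and the acetyltransferase genes *Ep300* (-1.18) and *Crebbp* (-1.23) were called lower besides.

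Other known targets went in both directions. By limma under library-size scaling, 20.6% of all genes were called lower and 8.07% higher. By the adjusted p alone these shares were 37.3% and 35.4%, and no share of all genes at the unadjusted p is given. Of 13 measured cell cycle and feedback targets, 2 fell, *Plk2* (-1.61; 355 ± 33.8 to 115 ± 5.77), a polo-like kinase, and *Trp53cor1* (-1.05; 5.94 ± 2.28 to 2.44 ± 0.15), the long non-coding RNA lincRNA-p21. By the same 3 tools 0 of the 13 rose, with 2 higher and 8 lower at an unadjusted p below 0.05, and the median was -0.56. Of 17 targets in cell death, 2 fell, the death receptor gene *Fas* (-2.62; 15.1 ± 2.85 to 2.03 ± 0.40) and *Dram1* (-1.17; 7.82 ± 0.59 to 3.23 ± 0.66), a lysosomal regulator of autophagy. The median was -0.41, and 0 rose with any of the 3 tools, with 4 higher and 11 lower at an unadjusted p below 0.05. *Trp53cor1* was measured on 23 to 48 reads per control library, and under quantile normalisation it was at 0.08 and *Dram1* at -0.15. Of 11 targets in DNA repair and nucleotide supply, 0 fell, with a median of 0.38. Also by edgeR and DESeq2 0 fell, and 6 were higher and 3 lower at an unadjusted p below 0.05. Of 24 targets in metabolism and growth signalling, 3 rose, *Ccng2* (1.58), *Sod2* (1.34), and *Gls2* (1.32), and 3 fell, *Tap1* (-2.48), *Thbs1* (-1.41), and *Lpin1* (-1.02), with a median of -0.04. These genes encode a cyclin, a mitochondrial superoxide dismutase, a glutaminase, a peptide transporter, thrombospondin 1, and a phosphatidate phosphatase.

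Under the spike-in scaling the medians of these lists were 1.02 for p53 and its regulators, 0.46 for cell cycle and feedback, 0.61 for cell death, 1.39 for DNA repair, 0.98 for metabolism, 1.53 for the genes lowered through p21 and DREAM, and 0.95 for all genes. By limma this scaling called 4 cell cycle and feedback targets higher and 0 lower (*Ckap2*, *Plk3*, *Sfn*, and *Psrc1*), 5 cell death targets higher (*Bbc3*, *Ei24*, *Bid*, *Siva1*, and *Rps27l*) and 1 lower (*Fas*), 8 DNA repair targets higher and 0 lower, and 10 metabolism targets higher and 1 lower (*Tap1*), beside 48.1% and 7.03% of all genes. Quantile normalisation called 0 DNA repair targets higher and 1 lower, and 0 and 3 cell cycle and feedback targets. It called 0 cell death targets higher and 2 lower, and 2 and 4 metabolism targets, beside 9.87% and 10.8% of all genes. The genes named here for the spike-in and quantile scalings were taken after their values were seen. The lists were chosen with earlier results known and were not tested as sets.

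Genes that p53 lowers through p21 and the DREAM complex, which represses cell cycle genes, were also listed. Of 18, 2 rose, *Bub1* (1.41; 135 ± 12.9 to 359 ± 19.1), a spindle checkpoint kinase, and *Mybl2* (1.20; 183 ± 10.4 to 419 ± 20.8), an activator of cell cycle genes. By limma, 8.07% of all genes were called higher and 20.6% lower, or 35.4% and 37.3% by the adjusted p alone. With limma, edgeR, and DESeq2 0 of the 18 fell, and at an unadjusted p below 0.05, 15 were higher and 1 lower. Their median was 0.51, or 0.16 under quantile normalisation. There 0 of the 18 were called, beside 9.87% of all genes higher and 10.8% lower. Under the spike-in scaling 17 of the 18 were called higher and 0 lower, beside 48.1% and 7.03% of all genes.

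Chromatin-associated RNA was counted in E14 cells with no treatment named, as a measure of transcripts near their genes. Counts on exons were 115 and 291 for *Ccng1*, 78 and 141 for *Trp53inp1*, 50 and 56 for *Mdm2*, 15 and 47 for *Zmat3*, 23 and 37 for *Sesn2*, and 18 and 36 for *Bax* in replicates 1 and 2, of 3441643 and 3393923 counts in all. The remaining genes had few: 10 and 21 for *Btg2*, 8 and 6 for *Cdkn1a*, 2 and 6 for *Phlda3*, and 5 and 2 for *Perp*, for which the exact 95% Poisson intervals are 1.62 to 11.7 and 0.24 to 7.22 (counting error only). For *Ccng1* the intervals, 94.9 to 138 and 259 to 326, did not overlap between the replicates, and its levels were 33.4 and 85.7 CPM. Small nucleolar RNAs took 63.8% and 60.7% of the counts.

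Set beside the control RNA level and centred on the median of 8753 genes with at least 10 counts, the log2 ratio of chromatin RNA to RNA was -4.44 for *Perp*, -3.64 for *Phlda3*, -2.30 for *Btg2*, and -2.16 for *Mdm2*. It was -1.03 for *Cdkn1a*, -0.72 for *Trp53inp1*, -0.66 for *Bax*, -0.48 for *Sesn2*, -0.18 for *Zmat3*, and 0.16 for *Ccng1*. *Mdm2* was thus at the 2.38th percentile of those genes and *Ccng1* at the 57.3rd. *Perp* and *Phlda3*, with 7 and 8 counts in both libraries together, were below that minimum and were not ranked. The 2 tables were normalised separately and no vector or puromycin is named for the chromatin cells, so the ratio has no test.

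**Figure D4:**
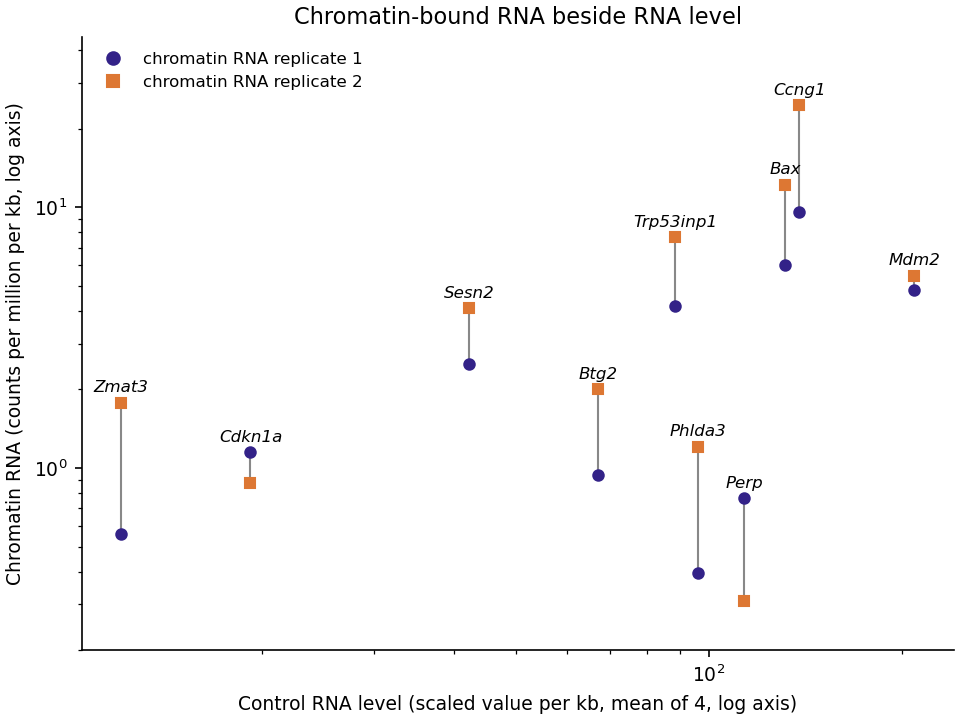
Chromatin-associated RNA (CPM per kb, 2 libraries joined by a line) against the control RNA level (library-size value per kb, mean of 4 libraries), both on log axes, for each p53 target gene. *Ccng1* and *Bax* are high on both axes, and *Perp* and *Phlda3*, with 2 to 6 counts a library, lie low for their RNA level.

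FACT peaks were listed under most of the 10 genes. The authors called 10114 SSRP1 and 3855 SUPT16 peaks and assigned them to genes with ChIP-Enrich, under its nearest-gene definition. A peak can thereby be listed under a gene that it does not overlap. By that rule 9 of the 10 genes had an SSRP1 peak, all but *Trp53inp1*, and 7 had a SUPT16 peak, all but *Trp53inp1*, *Ccng1*, and *Perp*. Of all 15384 genes, 36.0% had an SSRP1 and 18.6% a SUPT16 peak, and of the 5038 genes with control values in the range of the 10 genes, 48.1% and 27.9%. The peak lists carry no replicates, so there is no test.

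Within 1000 bp of the start, 8 of the 10 genes had an SSRP1 peak, beside 24.4% of all genes, and 5 a SUPT16 peak, beside 14.4%. These shares were not computed for genes in the same range of control values. Peaks of SSRP1 covered the start of *Mdm2* (588 bp), *Ccng1* (1470 bp), and *Phlda3* (1372 bp), and began 63, 92, 148, and 675 bp after the start of *Btg2*, *Bax*, *Sesn2*, and *Zmat3*. At *Perp* the peak of 490 bp ended 63 bp before the start. SUPT16 peaks covered the start of *Mdm2* (560 bp), *Phlda3* (210 bp), and *Zmat3* (420 bp). They overlapped an SSRP1 peak listed under 6 genes, *Mdm2*, *Cdkn1a*, *Btg2*, *Sesn2*, *Phlda3*, and *Bax*. For *Bax* the overlap of 4704 bp lay wholly beyond the end of the gene, and the SSRP1 peak near its start met no SUPT16 peak. *Cdkn1a* had no peak of either subunit within 1000 bp of its outermost annotated start, the only start used. The gene has 2 RefSeq transcripts. A SUPT16 peak of 560 bp began 2835 bp after that start and covered 41 exonic bases. The SSRP1 peak of 784 bp nearest to that start was intronic and began 3843 bp after it, sharing 532 bp with another SUPT16 peak.

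The longest peaks listed under *Bax*, of 4900 bp for each subunit, lay wholly beyond the end of the gene, 5482 and 5678 bp after its start. They covered 1943 bp of *Ftl1*, the ferritin light chain gene, and are listed under *Bax* by the nearest-gene rule. When peaks had to overlap the gene or the 1000 bp before its start, 9 of the 10 genes had an SSRP1 peak, beside 32.8% of all genes, and 6 a SUPT16 peak, beside 17.9%, with *Bax* the one lost. These shares too were over genes of any control level. *Trp53inp1* was the one of the 10 without a peak of either subunit. Its fold change depended on the scaling (0.97 under spike-in scaling, -0.75 under quantile normalisation). Genes with an SSRP1 peak went in both directions under library-size scaling, *Ccng1* and *Bax* higher and *Perp*, *Mdm2*, *Zmat3*, and *Btg2* lower. Whether a peak goes with a change in RNA was not tested.

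**Figure D5:**
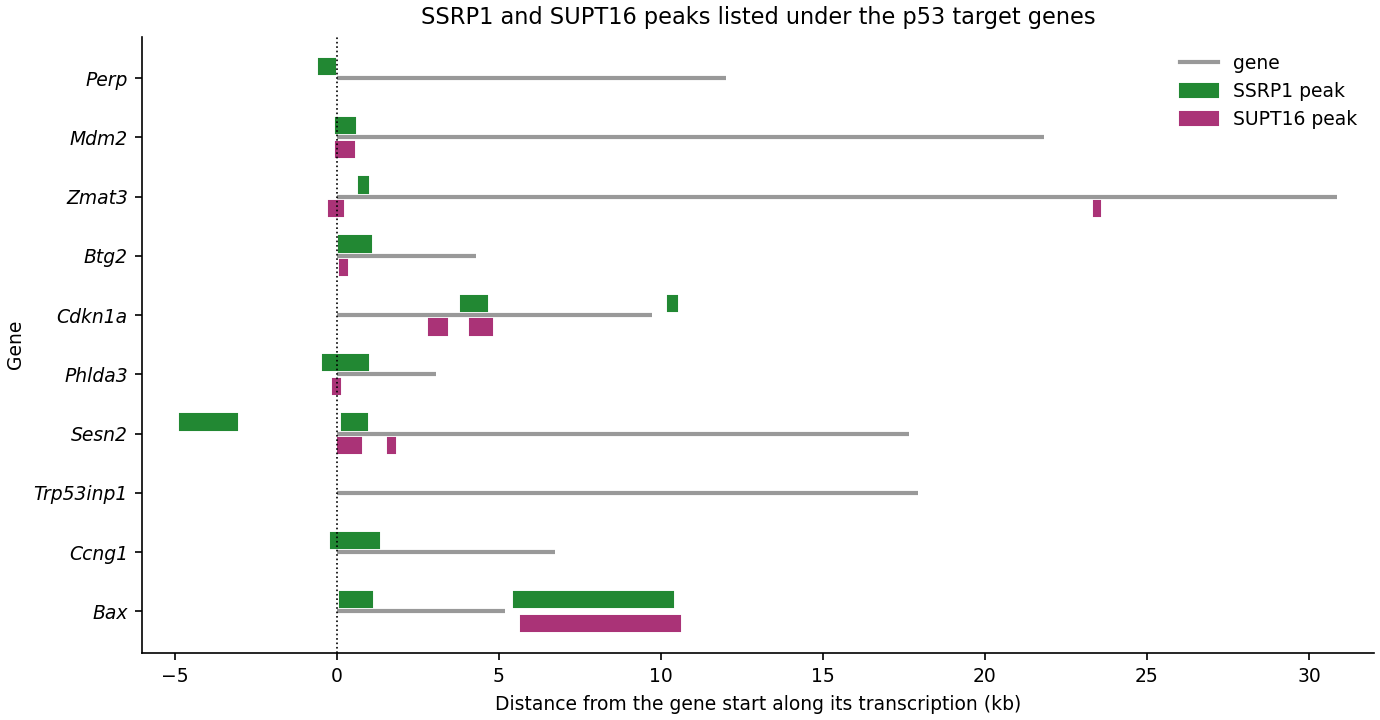
Peaks of SSRP1 (green, above) and SUPT16 (purple, below) listed under each p53 target gene, against the distance from its start in kb along the direction of transcription. Grey lines are the genes. Of the 10 genes, 8 have an SSRP1 peak within 1000 bp of the start, *Trp53inp1* has none, and the 4900 bp peaks listed under *Bax* lie beyond its end.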

How the data were processed

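The members and all gene lists were chosen with earlier results of these data known. RNA-seq reads were aligned by the authors to mm10 with STAR and counted with featureCounts, genes above 1 CPM (counts scaled to a common library total) were kept, and each library was scaled to library size (TMM in edgeR) or to the spike-ins. The deposited values are a signal per gene. From their steps whole reads were recovered (100% of values within 0.1 read), and 1 read was worth 0.058 to 0.179. Chromatin RNA was deposited as raw counts (STAR 2.4.1b, featureCounts). For the peaks, the authors ran PePr on pooled replicates (Bowtie2 2.2.6, mm10).

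Library-size values of 15384 genes were tested with limma 3.58.1 (trend, R 4.3.3) on log2(value + 0.5), 4 KD against 4 control libraries, without covariates. Alternatives were edgeR 4.0.16, DESeq2 1.42.0, treat, pseudocounts 0.1 and 2, a filter of 10 reads in 4 libraries, TMM, size factor, spike-in, quantile, and CPM scaling, a length correction, no trend, a replicate block, and fits without each single library. Genes outside the 10 were named by a rule: at most 3 called genes per list and direction, by the absolute fold change, besides *Trp53*, *Mdm4*, and *Ppm1d*. Deposited tables of the authors' own comparisons (KD against control in the set without spike-ins, NPCs against mES cells, exon usage) hold fold changes and p-values and were not used. MNase-seq, ATAC-seq, and NET-seq were not analysed here. *Trp63*, *Rprm*, *Casp1*, and *Dglucy* had no values per library. A called gene of the DNA repair list is not reported here.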

Additional observations from a re-analysis of the deposited data

How the results depend on the processing

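Leaving out 1 RNA library at a time kept 4 genes called lower and 0 higher. It also left 9 with separate groups and 44 separate pairs. These 2 counts could not fall, since groups that are apart stay apart when a library is left out. Log2 fold changes then ranged from -1.83 to -1.73 for *Perp*, -1.57 to -1.46 for *Mdm2*, -1.44 to -1.38 for *Zmat3*, -1.18 to -1.07 for *Btg2*, -0.96 to -0.77 for *Cdkn1a*, -0.78 to -0.62 for *Phlda3*, -0.46 to -0.34 for *Sesn2*, -0.10 to -0.01 for *Trp53inp1*, 0.54 to 0.61 for *Ccng1*, and 0.74 to 0.83 for *Bax*. Of all genes, 1210 to 1316 were called higher and 3044 to 3331 lower. Among 412 comparisons with an alternative were the counts of separate groups and pairs without 1 library, which could not fall. Of the 412, 350 kept their direction and their side of the threshold, or their size. Treat, no trend, the replicate block, and the read filter reuse the same fold changes, so a direction could not change there. Counts were taken as kept within a set factor, so 6 genes called lower under plain CPM, against 4, counted as kept. *Trp53inp1* at -0.75 under quantile normalisation, against -0.05, also counted as kept. The cause was not tested for the comparisons that were not kept, which follow.

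The spike-in scaling gave log2 fold changes of -0.49 for *Mdm2*, -0.76 for *Perp*, -0.39 for *Zmat3*, and -0.10 for *Btg2*, none of them called. It gave 0.14 for *Cdkn1a*, 0.32 for *Phlda3*, 0.60 for *Sesn2*, and 0.97 for *Trp53inp1*, against the direction under library-size scaling, and 1.59 for *Ccng1* and 1.81 for *Bax*, both called. It called 2 of the 10 genes higher and 0 lower, left 3 with separate groups (10 with plain CPM), and called 7394 genes higher and 1082 lower in all. Without KD replicate 1, added after seeing the data, the spike-in scaling gave -0.27 for *Mdm2*, -0.56 for *Perp*, -0.21 for *Zmat3*, 0.10 for *Btg2*, 0.31 for *Cdkn1a*, 0.52 for *Phlda3*, 0.84 for *Sesn2*, 1.18 for *Trp53inp1*, 1.80 for *Ccng1*, and 2.01 for *Bax*, with 3 of the 10 genes called higher and 0 lower, and 8607 genes higher and 834 lower in all. Quantile normalisation put *Ccng1* at -0.17 and *Phlda3* at -1.09, the latter called, and called 1656 genes lower. The length correction put *Zmat3* at -0.92 and *Trp53inp1* at 0.22. Plain CPM, added after seeing the data, put *Cdkn1a* at -1.29 and *Phlda3* at -1.13, both called, and called 343 genes higher and 4696 lower. The treat test of limma no longer called *Btg2*, at -1.13, and called 517 genes higher and 1580 lower. The adjusted p alone called 2 of the 10 genes higher and 7 lower, and 5447 and 5745 of all genes.

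Same-numbered control and KD libraries did not deviate together (correlations of -0.06 to 0.02), so the numbers were not taken as pairs. A fit with the replicate number as a block called the same counts, 4 of the 10 genes lower and 0 higher, with *Mdm2* at -1.52, and 1242 genes higher and 3163 lower, since a balanced block changes the p-values and not the fold changes. Levels without division by length put *Bax* at place 7 in control and 4 in KD cells and *Mdm2* at place 3 in KD cells, and the highest gene 16.3 times above the lowest in control and 34.2 times in KD cells. The ratio of chromatin RNA to RNA, with 1 chromatin library at a time and each centred on the genes with at least 10 counts in that library, so that the value of both libraries together can lie outside the range, ranged from -5.48 to -3.62 for *Perp*, -4.15 to -3.49 for *Phlda3*, -2.63 to -2.32 for *Btg2*, -2.54 to -1.98 for *Mdm2*, -1.65 to -0.54 for *Cdkn1a*, -0.94 to -0.81 for *Trp53inp1*, -0.96 to -0.70 for *Bax*, -0.63 to -0.59 for *Sesn2*, -0.93 to -0.040 for *Zmat3*, and -0.39 to 0.22 for *Ccng1*. With peaks of at least 500 bp, 4 genes had a SUPT16 peak. Within 5000 bp of the start, a window added later, 9 genes held 2 p53 decamers, 3 with no mismatch, 5 without a spacer, and 3 without a spacer and at most 1 mismatch. Depth limits *Phlda3* and *Perp* in chromatin RNA, at 2 to 6 counts a library, and *Trp53cor1* in control RNA.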
